A study of Mus musculus with 6 samples.

Results

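The genes described here encode the subunits of the first and second complexes of the mitochondrial respiratory chain in mouse quadriceps muscle. They are every gene whose platform symbol starts with Nduf, the Ndufaf assembly factors being kept apart, together with Sdha, Sdhb, Sdhc and Sdhd. That gave 40 genes, 36 Nduf and 4 Sdh, of 19057 genes with 1 symbol on the array, and where a gene has several probes, the one brightest on average over all 6 arrays stands for it. RNA came from quadriceps of NOD-SCID mice 22 days after subcutaneous transplantation of RXF393 cells, which the labels call cachectic, or of SKRC39 cells, which they call not cachectic. RXF393 and SKRC39 are human renal cancer lines, and cachexia is a wasting of muscle and fat seen with some tumours. All mice share the NOD-SCID background, which lacks functional T and B lymphocytes, and every mouse carried a tumour, so each value sets one tumour line against the other. One line stands for each state, so the state and the line cannot be told apart.

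Complex I passes electrons from NADH to ubiquinone and pumps protons across the inner mitochondrial membrane. Its matrix arm holds the flavin and the iron-sulfur clusters, its membrane arm holds the pump, and accessory subunits surround a conserved core that is encoded partly in the nucleus and partly in mitochondrial DNA. Complex II, succinate dehydrogenase, passes electrons from succinate to ubiquinone, pumps no protons and also belongs to the tricarboxylic acid cycle. Working muscle fibres, oxidative ones above all, hold both complexes in large amounts.

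Title and characteristics name different lines on 2 of the 6 arrays: the characteristics give SKRC39 for the one titled RXF_1 and RXF393 for the one titled SKR_3. The comparison therefore used RXF393 replicates 2 and 3 against SKRC39 replicates 1 and 2, and the values of the other 2 arrays are given apart. Pearson correlations between arrays over all probes lay between 0.883 and 0.988. Each conflicting array correlated best with an array of the line its characteristics name. The arrays did not sort by line throughout. RXF393 replicate 2 correlated at 0.96 and 0.9655 with SKRC39 replicates 1 and 2, against 0.9427 with RXF393 replicate 3. The design text can be read as 1 mouse per array, which it does not state outright, so the tests measure the spread between these arrays. The share of probes detected was 33.7% and 30.9% on RXF393 replicates 2 and 3, against 37.7% and 33.7% on SKRC39 replicates 1 and 2. The 10 skeletal muscle markers tested were bright on every array, with summed intensities of 502330 and 503120 on the RXF393 arrays, against 533330 and 555020 on the SKRC39 arrays. Acta1, Ckm, Tnni2 and Tnnc2 lay within 20% of the highest signal on every array compared, so these sums can hide a difference. Among the 10, 3 had both RXF393 arrays below both SKRC39 arrays and 1 above, against 20.6% and 28.1% of all genes.

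Most complex I and II genes were among the bright probes of these muscles, and their levels were lower with RXF393 than with SKRC39, by amounts that did not pass the test with 2 arrays per group. Of the 40 genes, 39 passed the detection filter and were tested, and 37 were detected on all 6 arrays. None passed the threshold of 0.05 in either direction in limma's moderated test with Benjamini-Hochberg adjustment over all probes. Among all 10196 genes tested, 0.157% passed as lower and 0.196% as higher, so a count of 0 among 39 is near the background. The smallest adjusted p of the 39 was 0.2233, for Ndufv3. At an unadjusted p under 0.05, 17 of the 39 genes were lower, against 6.69% of all genes, and 0 were higher, against 8.1% of all genes. That count of 17 was 3 under median scaling, against 449 of all 10196 genes. It was 0 without the intensity trend in the variances, against 576 of all genes. Without SKRC39 replicate 2 the median log2 difference was -0.60 over the 39 genes and 0.19 over all genes. Without RXF393 replicate 3 it was -0.61 over the 39 genes and 0.0042 over all genes.

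The direction was shared among the members under quantile scaling. The log2 difference was negative for 38 of 39 genes, against 46.5% of all genes. With arrays scaled to a common median it was negative for only 25 of 39, against 36.5% of all genes. Both RXF393 arrays lay below both SKRC39 arrays for 31 of 39 genes, against 20.6% of all genes. For no gene of the 39 did both RXF393 arrays lie above both SKRC39 arrays, against 28.1% of all genes. The groups overlapped for the other 8, namely Ndufa4, Ndufa6, Ndufb2, Ndufb4, Ndufb7, Ndufb9, Ndufb11 and Sdhd. The median log2 difference was -0.68 over the 39 genes and 0.07 over all genes. In bulk RNA, fewer cells of a type and less RNA per cell cannot be told apart.

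Most differences were modest. For 8 genes the log2 difference was below -1, for 15 it lay between -1 and -0.5, and for 15 between -0.5 and 0. In 26 of 39 genes it was larger than the gap between the RXF393 arrays, against 47.2% of all genes. Most members are bright. Among all 338 tested genes with a mean log2 intensity of at least 14, 48.2% were negative and the median was 0.02, while all 24 members in that range were negative with a median of -0.59. Median scaling raised the median of all genes to 0.31 and left the members' median 0.49 below it, compared with 0.74 below it under quantile scaling. The 13 genes that then turned positive were Ndufa1, Ndufa2, Ndufa3, Ndufa4, Ndufa6, Ndufa7, Ndufa8, Ndufa10, Ndufa13, Ndufb2, Ndufb9, Ndufs5-ps and Ndufs6. With that scaling 53 genes passed as lower and 133 as higher over the whole array, in place of 16 and 20, and no member passed.

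**Figure D1:**
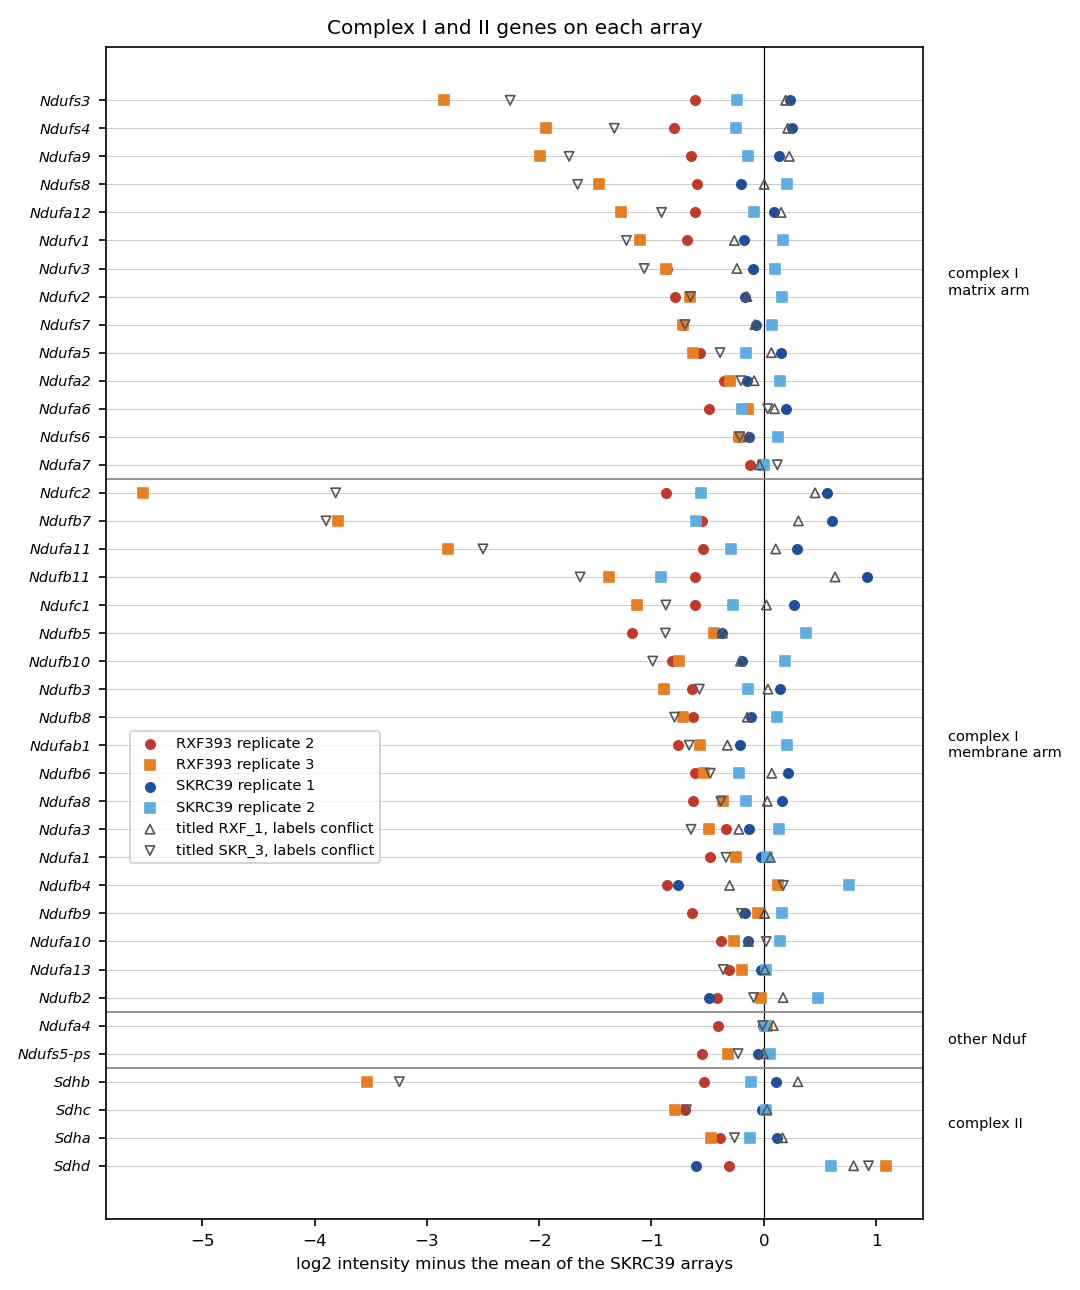
Each row is 1 of the 39 tested genes, and the horizontal axis gives the log2 intensity on each array minus the mean of the SKRC39 arrays. RXF393 replicates lie left of 0 in most rows, most of the array titled SKR_3 lies with them, and the array titled RXF_1 lies near the SKRC39 arrays. The left shift holds for 38 of 39 genes under the quantile scaling plotted and for 25 of 39 under median scaling. Over all genes the shares are 46.5% and 36.5%.

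The nuclear-encoded core of complex I lies in the matrix arm, and all 5 of its tested subunits were lower on both RXF393 arrays. Ndufv1, which binds NADH and the flavin, had log2 intensities of 14.77 and 14.34 on the RXF393 arrays, against 15.27 and 15.62 on the SKRC39 arrays. The groups did not overlap, and the log2 difference was -0.89 ± 0.26 (SE, adjusted p = 0.2579 by limma). Ndufv2, an iron-sulfur subunit beside it, had 14.63 and 14.76 with RXF393, against 15.25 and 15.58 with SKRC39. That difference was -0.72 ± 0.24 (SE, adjusted p = 0.2937), again without overlap.

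Farther along the electron path the spread between the RXF393 arrays varied. Ndufs7, which carries the last cluster before ubiquinone, had 14.81 and 14.82 on the RXF393 arrays, against 15.46 and 15.61 on the SKRC39 arrays. The RXF393 arrays were nearly equal, and the difference was -0.72 ± 0.22 (SE, adjusted p = 0.263). Ndufs8, which holds iron-sulfur clusters, had 13.82 and 12.95 with RXF393, against 14.21 and 14.62 with SKRC39. Its difference of -1.03 ± 0.37 (SE, adjusted p = 0.3311) rested more on RXF393 replicate 3. Ndufs3, a core subunit without a cofactor of its own, had 13.64 and 11.40 with RXF393, against 14.49 and 14.01 with SKRC39. Both RXF393 arrays were lower, but replicate 3 was far below replicate 2, and the difference of -1.73 carried an SE of 0.67 (adjusted p = 0.3612). Ndufs1 was not detected on any of the 6 arrays, with log2 intensities from 4.93 to 5.47, and was not tested.

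**Figure D2:**
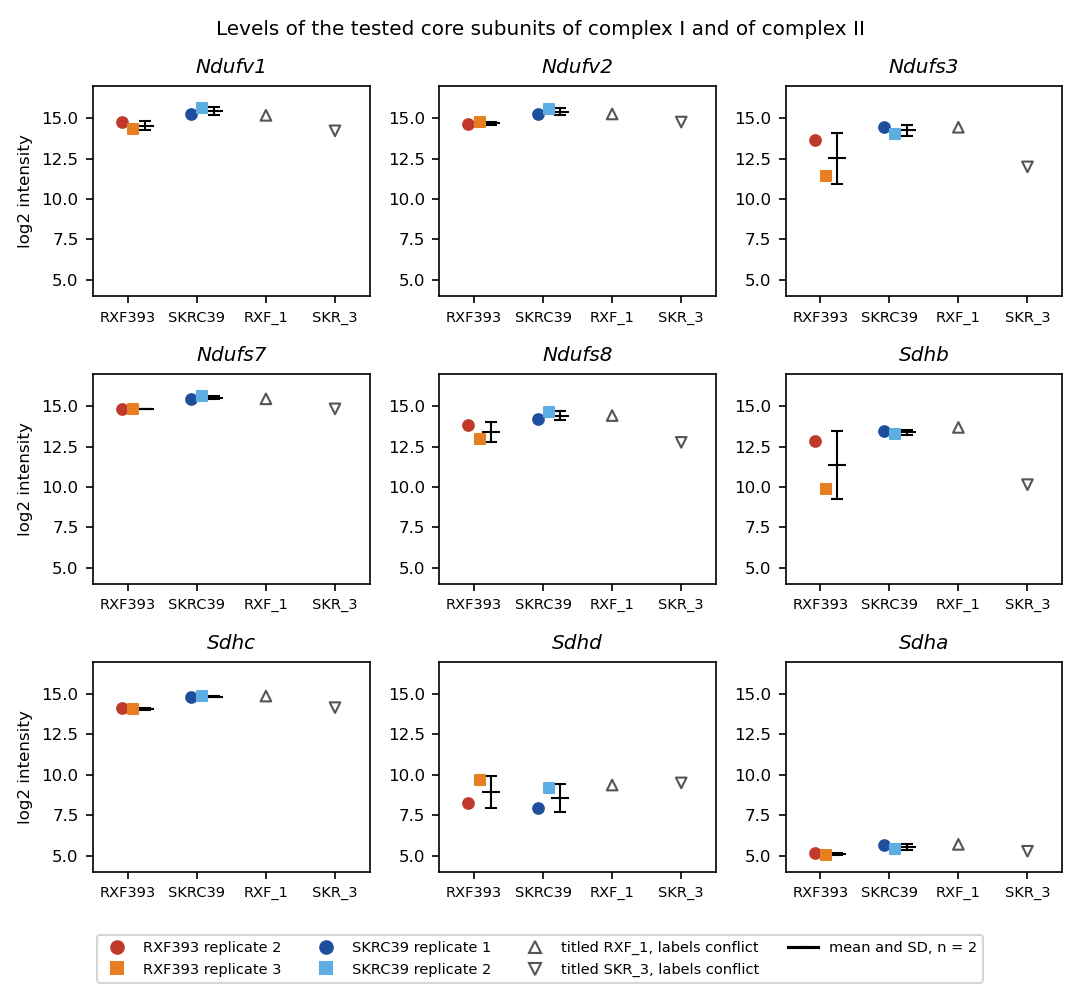
Log2 intensity of the 5 tested core subunits of complex I and the 4 subunits of complex II on each array, with the mean and SD of the RXF393 and SKRC39 arrays (n = 2 each). Ndufv1, Ndufv2, Ndufs7 and Sdhc show narrow RXF393 pairs below the SKRC39 pairs, while Ndufs3 and Sdhb show a wide RXF393 pair.

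The matrix arm as a whole was lower in sign under quantile scaling, whereas its accessory subunits were divided under median scaling. Of the 14 tested genes of this arm, 14 had a negative difference, or 10 under median scaling, where 36.5% of all genes were negative. In 13 both RXF393 arrays lay below both SKRC39 arrays, against 20.6% of all genes, and the median of the arm was -0.79. Its 9 tested accessory genes were all negative, but 4 of them, Ndufa2, Ndufa6, Ndufa7 and Ndufs6, turned positive under median scaling, unlike the 5 core genes. Ndufv3, a small accessory subunit at the NADH end, had 14.31 and 14.30 on the RXF393 arrays, against 15.07 and 15.26 on the SKRC39 arrays. Its pairs were tight and apart, with a difference of -0.86 ± 0.23 (SE, adjusted p = 0.2233). Ndufs4, which stabilises the NADH-binding module and whose loss in mice gives a Leigh-like encephalopathy, had 13.87 and 12.73 with RXF393, against 14.92 and 14.42 with SKRC39. The groups did not overlap, and the difference was -1.37 ± 0.42 (SE, adjusted p = 0.2709). Ndufa9, an accessory subunit near the ubiquinone site, had 14.17 and 12.83 with RXF393, against 14.96 and 14.68 with SKRC39. Ndufa12, the accessory subunit whose place Ndufaf2 holds during assembly, differed by -0.94 ± 0.30 (SE, adjusted p = 0.2858). At the other end stood Ndufs6, a zinc-binding subunit, with -0.23 ± 0.20, and Ndufa7, with -0.06 ± 0.23, both turning positive under median scaling.

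Membrane-arm subunits were less uniform. Of 19 tested genes 19 had a negative difference, or 12 under median scaling, where 36.5% of all genes were negative. In 14 both RXF393 arrays lay below both SKRC39 arrays, against 20.6% of all genes, and the median of the 19 was -0.67. The most negative value of all 39 was that of Ndufc2, a membrane-arm accessory subunit, with 12.67 and 8.02 on the RXF393 arrays, against 14.10 and 12.98 on the SKRC39 arrays. Both RXF393 arrays were lower, the 2 differed from each other by more than the groups did, and the difference was -3.20 ± 1.33 (SE, adjusted p = 0.3852). Ndufb7, which faces the intermembrane space, had 10.65 and 7.41 with RXF393, against 11.80 and 10.60 with SKRC39. RXF393 replicate 2 lay within the SKRC39 pair, and the difference was -2.17 ± 1.04 (SE, adjusted p = 0.4295). Ndufa11, which helps hold the membrane arm and respiratory supercomplexes together, had 13.48 and 11.21 with RXF393, against 14.31 and 13.73 with SKRC39. The pairs did not overlap, and the difference was -1.67 ± 0.69 (SE, adjusted p = 0.3839).

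Other membrane-arm genes were tighter. Ndufab1, the mitochondrial acyl carrier protein that also serves lipoic acid synthesis, had 14.89 and 15.08 with RXF393, against 15.45 and 15.86 with SKRC39. The difference was -0.67 ± 0.24 (SE, adjusted p = 0.3397), with no overlap. Ndufb8, a subunit often used as a readout of assembled complex I, averaged 15.21 ± 0.07 with RXF393 and 15.88 ± 0.16 with SKRC39 (SD, n = 2 each). Its difference was -0.68 ± 0.21 (SE, adjusted p = 0.2799), and both SKRC39 values lay within 20% of the highest signal on their arrays. The same closeness to the top held for Ndufa13, Ndufa4 and Ndufs6, where the scale leaves little room for a higher SKRC39 value. Ndufb11, which only 1 of the RXF393 arrays detected, was at least 1.81-fold lower with RXF393, with overlapping groups (adjusted p = 0.5861). Its log2 difference lay between -1.91 and -0.072 when 1 array at a time was left out.

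Further members, mostly of the membrane arm, also had lower means with RXF393, by varying amounts. Ndufc1, a small membrane-arm subunit, had 14.83 and 14.31 with RXF393, against 15.71 and 15.17 with SKRC39. Ndufb3 had 13.15 and 12.90 with RXF393, against 13.93 and 13.65 with SKRC39. In both the pairs were apart, with differences of -0.87 ± 0.30 (SE, adjusted p = 0.31) for Ndufc1 and -0.77 ± 0.30 (SE, adjusted p = 0.3611) for Ndufb3. Ndufb5 had 11.01 and 11.74 with RXF393, against 11.81 and 12.56 with SKRC39, so its pairs barely separated. Ndufb10 had 11.60 and 11.65 with RXF393, against 12.22 and 12.60 with SKRC39, a clearer gap at a similar difference of -0.79 ± 0.36 (SE, adjusted p = 0.4196). Ndufb4 had 8.70 and 9.68 with RXF393, against 8.80 and 10.32 with SKRC39, and overlapped. Ndufa13, a membrane-arm subunit also known as GRIM-19 and linked to cell death, had 15.74 and 15.85 with RXF393, against 16.02 and 16.07 with SKRC39. Its pairs were apart, but the difference was only -0.25 ± 0.19 (SE, adjusted p = 0.581), near the top of the scale. Ndufa10, a subunit with a nucleoside kinase fold, differed by -0.33 ± 0.23 (SE, adjusted p = 0.5543), and Ndufa5 of the matrix arm by -0.60 ± 0.23 (SE, adjusted p = 0.361).

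Outside both arms, Ndufa4, now counted with complex IV, had 15.54 and 15.98 on the RXF393 arrays, against 15.94 and 15.96 on the SKRC39 arrays. RXF393 replicate 3 matched the SKRC39 arrays, and the difference was -0.19 ± 0.22 (SE, adjusted p = 0.7218). The symbol Ndufs5-ps is that of a pseudogene in the platform annotation, and whether its probe also binds the parent gene's transcript was not tested. Its difference was -0.43 ± 0.25 (SE, adjusted p = 0.5002). Ndufa4l2, Ndufb1 and the mitochondrially encoded subunits are not analysed here.

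The 4 subunits of complex II were less alike. Sdhc, one of the membrane anchors, had 14.15 and 14.06 on the RXF393 arrays, against 14.83 and 14.87 on the SKRC39 arrays. Both pairs were tight and apart, and the difference was -0.75 ± 0.24 (SE, adjusted p = 0.2839). Sdhb, the iron-sulfur subunit, had 12.86 and 9.85 with RXF393, against 13.50 and 13.27 with SKRC39. RXF393 replicate 3 was far below the other 3 arrays, and the difference was -2.03 ± 0.87 (SE, adjusted p = 0.391). Sdhd, the other anchor, was the only tested member with a positive difference, having 8.26 and 9.66 with RXF393, against 7.97 and 9.17 with SKRC39. Its groups overlapped, and the difference of 0.39 ± 0.76 (SE, adjusted p = 0.8366) was smaller than the gap within either pair. Sdha, the flavoprotein, was near background on every array, with 5.14 and 5.06 on the RXF393 arrays, against 5.65 and 5.41 on the SKRC39 arrays. It was detected on neither RXF393 array and on 1 SKRC39 array, so no fold is given. It passed the filter only through SKRC39 replicate 1 and the array titled RXF_1. Its place among the negative and non-overlapping members therefore carries little weight.

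The 2 RXF393 arrays split the members into a large group with similar values and a small group in which replicate 3 was far lower. They lay within 1 log2 unit for 31 of 39 genes and within 0.5 for 24. In 7 genes, Ndufa9, Ndufa11, Ndufb7, Ndufc2, Ndufs3, Ndufs4 and Sdhb, replicate 3 was more than 1 unit below replicate 2, and in Sdhd it was more than 1 unit above. The 7 had a median gap of 2.27 and a median difference of -1.73, whereas the other 32 tested members had a median gap of 0.21 and a median difference of -0.53. A wide gap and a lower difference follow from picking the 7 by a low replicate 3, and the share of all genes with such a drop was not counted. The 7 span both complexes and both arms of complex I. All but Ndufs8 of the 8 genes with a difference below -1 are in this group of 7, so most of the largest differences rest more on replicate 3 than on replicate 2. The fit without RXF393 replicate 2, which sets 1 RXF393 array against 2 and assumes that the lone array varies like the SKRC39 ones, called 7 of 39 members as lower, against 2.72% of all genes. They are the same 7 genes, which were picked here by their low replicate 3, so those calls restate the choice. Without RXF393 replicate 3, 39 of 39 members were negative and 0 were called.

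**Figure D3:**
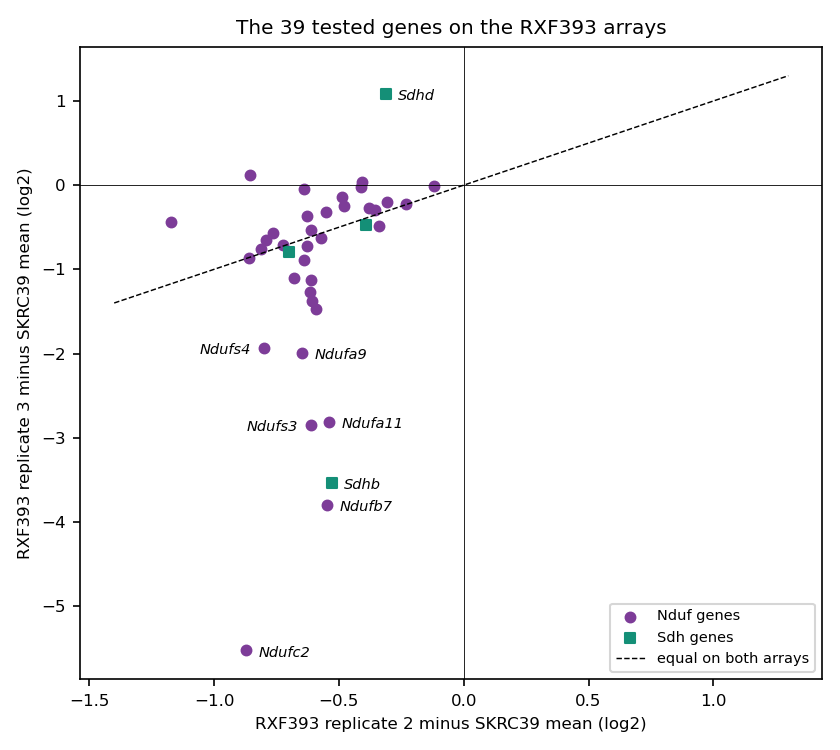
Each point is 1 tested gene, with its log2 intensity on RXF393 replicate 2 minus the SKRC39 mean on the horizontal axis and the same for RXF393 replicate 3 on the vertical axis. The named genes differ by more than 1 log2 unit between the RXF393 arrays. Most others lie near the dashed line of equal values, in the quadrant where both are negative.

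Several probes of a gene, some of them designed to different transcripts, gave a second look at some members. Among the 14 members with several tested probes, the signs of the probes were alike in 13 and differed in Ndufa5, with -0.60 and 0.68. The probes of Ndufv3, Ndufb8, Ndufa3 and Ndufc1 lay within 0.2 log2 units of each other. In 5 genes they differed by more than 1 unit, namely Ndufa5, Ndufa8, Ndufab1, Ndufc2 and Sdhb. A dimmer probe of Ndufab1, detected on 1 of the 2 RXF393 arrays, had 11.73 and 5.63 there, against 14.09 and 11.54 on the SKRC39 arrays. Its measured difference was -4.13, compared with -0.67 for the brightest probe and -0.72 for the third tested one. For Ndufc2 the reverse held, since its brightest probe differed by -3.20 and its dimmer one by -0.06. The size of a gene's difference therefore depended on the probe, and the causes of these disagreements were not tested.

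**Figure D4:**
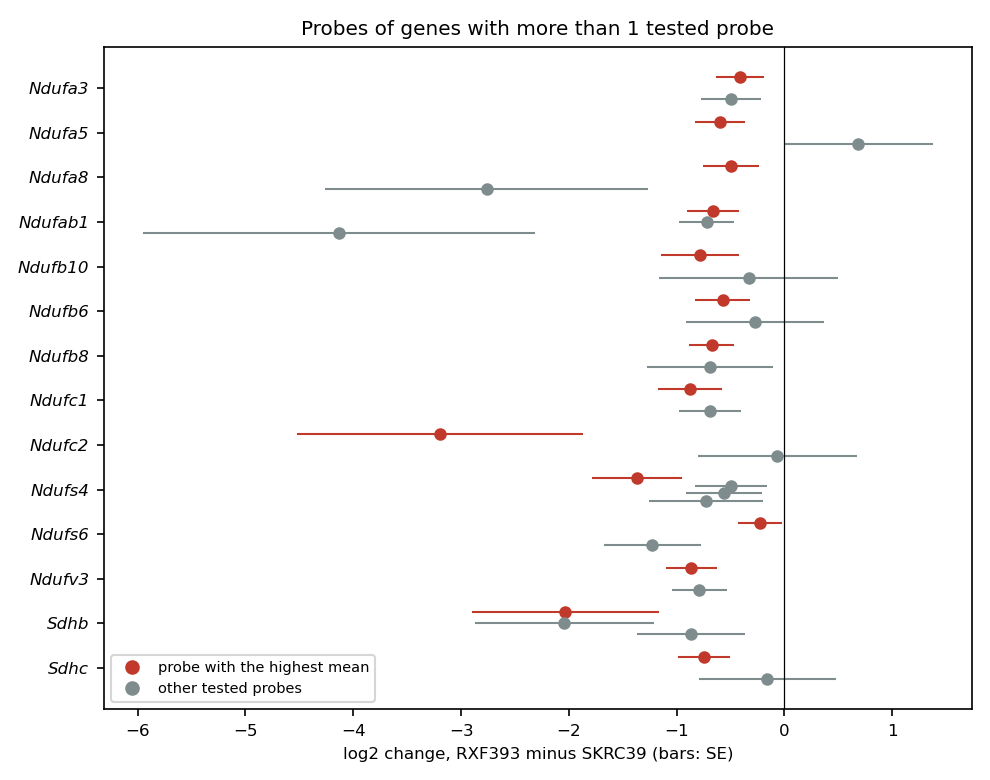
Log2 difference, RXF393 minus SKRC39, of every tested probe of the 14 members with more than 1 tested probe, the brightest probe being marked apart. In 13 of the 14 genes all probes lie on one side of 0, and in 5 genes the probes lie more than 1 log2 unit apart.

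Promoter sequence was set beside these differences because many nuclear genes of the respiratory chain are known targets of NRF1 and of GABP, an ETS-family factor. Promoters from RefSeq, spanning 250 bases before to 50 bases after the start on GRCm38.p6, were matched for 35 of the 40 members. An NRF1 motif, whose 10 letters are the capitals in the Ndufa11 promoter printed here and read the same on both strands, occurred in 1 of 35 promoters, or 2.86%, against 1.07% of 27025 genes. The ETS letters CCGGAAG, searched on both strands, occurred in 6 of 35, or 17.1%, against 9.93% of all genes. The 6 were Ndufb6, Ndufb7, Ndufs3, Ndufs8, Sdhb and Sdhd, whose differences run from -2.17 to 0.39. The 4 promoters below belong to genes in which RXF393 replicate 3 was far below replicate 2 and which hold a match. Capitals mark the NRF1 letters in Ndufa11 and the ETS letters, read on either strand, in the others. Each is printed 5′ to 3′ on the strand of its gene.
Ndufa11, chr17:56717512-56717811, plus strand: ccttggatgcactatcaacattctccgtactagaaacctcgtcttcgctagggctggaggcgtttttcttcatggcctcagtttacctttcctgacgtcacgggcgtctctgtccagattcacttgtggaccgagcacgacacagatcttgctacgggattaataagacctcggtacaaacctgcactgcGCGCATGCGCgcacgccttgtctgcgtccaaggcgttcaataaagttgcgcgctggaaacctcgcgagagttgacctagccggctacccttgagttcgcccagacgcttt
Ndufb7, chr8:83566508-83566807, plus strand: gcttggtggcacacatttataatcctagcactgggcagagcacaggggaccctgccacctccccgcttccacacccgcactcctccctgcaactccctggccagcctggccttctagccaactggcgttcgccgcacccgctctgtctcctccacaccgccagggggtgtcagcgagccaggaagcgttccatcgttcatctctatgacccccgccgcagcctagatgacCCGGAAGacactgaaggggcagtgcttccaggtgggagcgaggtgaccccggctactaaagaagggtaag
Ndufs3, chr2:90904672-90904971, minus strand: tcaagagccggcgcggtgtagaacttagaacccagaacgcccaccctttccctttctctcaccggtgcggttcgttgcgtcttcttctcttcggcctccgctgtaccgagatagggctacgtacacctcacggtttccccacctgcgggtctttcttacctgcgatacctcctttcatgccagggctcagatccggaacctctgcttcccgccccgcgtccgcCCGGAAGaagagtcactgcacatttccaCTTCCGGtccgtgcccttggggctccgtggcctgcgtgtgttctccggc
Sdhb, chr4:140961021-140961320, plus strand: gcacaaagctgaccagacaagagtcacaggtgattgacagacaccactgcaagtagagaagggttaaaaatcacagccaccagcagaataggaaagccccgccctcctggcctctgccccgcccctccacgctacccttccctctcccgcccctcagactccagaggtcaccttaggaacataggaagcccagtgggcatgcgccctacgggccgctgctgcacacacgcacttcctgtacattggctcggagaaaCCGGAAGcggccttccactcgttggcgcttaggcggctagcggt
The other members of that group of 7 with a matched promoter held neither motif in this window. A match is a description of letters, not evidence of binding.

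Assembly factors of complex I did not follow the subunits uniformly. Of 8 Ndufaf genes, 7 were tested and none passed the threshold. Of these 7, 5 were negative, against 46.5% of all genes, and the median was -0.61. In 2 both RXF393 arrays were lower and in 1 both were higher, against 20.6% and 28.1% of all genes. Ndufaf4, which works with Ndufaf3 on the ubiquinone module, was the one with both arrays higher, having 13.23 and 13.79 with RXF393, against 12.48 and 12.72 with SKRC39. Its difference was 0.91 ± 0.34 (SE, adjusted p = 0.3483), while a second probe gave -0.48. Ndufaf3 itself had 6.91 and 7.30 with RXF393, against 6.77 and 7.31 with SKRC39, with overlapping pairs. Ndufaf5, which hydroxylates Ndufs7, had a difference of -1.02 ± 0.43 (SE, adjusted p = 0.3901), both RXF393 arrays being lower. Its partner Ndufaf8 had 9.91 and 6.52 with RXF393, against 10.53 and 8.83 with SKRC39, a difference of -1.47 ± 1.16 (SE) with overlap. Ndufaf7, a mitochondrial methyltransferase, was detected on no RXF393 array and on 1 SKRC39 array, and its mean was at least 2.27-fold lower with RXF393. The groups overlapped, and that bound rests on SKRC39 replicate 1, without which the difference was 0.014. Ndufaf2 had 8.47 and 9.29 with RXF393, against 8.89 and 9.68 with SKRC39, again overlapping.

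Genes that build or feed the complexes were mixed in sign, and none passed the threshold. Of 8 tested assembly factors of complex I outside the Ndufaf family, 5 were negative. Acad9, which joins Ndufaf1 in an assembly complex, was at least 4.21-fold lower with RXF393 in a comparison where 1 RXF393 array detected it, and Tmem126b differed by 0.96 ± 0.58 (SE). Of the 4 complex II assembly factors 2 were negative, the extremes being Sdhaf4 at -1.24 ± 0.39 (SE, adjusted p = 0.2819) and Sdhaf2, which aids flavin attachment to Sdha, at 0.32 ± 0.55. Of 11 genes for iron-sulfur clusters 5 were negative, between Isca1 at -2.55 ± 1.10 and Iba57 at 1.02 ± 0.56. Among 7 other electron donors to ubiquinone 4 were negative. Etfdh, which passes electrons from fatty acid oxidation, was at least 4.61-fold lower with RXF393 on its brightest probe, with overlapping groups and detection on 1 RXF393 array, but differed by only -0.033 as the mean of its tested probes. Sqor differed by 0.88 ± 0.71. Of 10 genes of ubiquinone synthesis 5 were negative, Coq9 standing at -3.63 ± 1.78 and Coq10b at 1.81 ± 0.71, or 0.69 as the mean of its probes. Without RXF393 replicate 3 the difference was -0.85 for Acad9, -0.66 for Isca1, -0.018 for Etfdh and -0.52 for Coq9.

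Regulators and general mitochondrial genes gave a similar mixture. Of 11 tested regulators of the respiratory chain 6 were negative, with a median of -0.09. Perm1, a muscle regulator of mitochondrial genes induced by PGC-1, had 11.86 and 11.60 on the RXF393 arrays, against 13.87 and 14.27 on the SKRC39 arrays. Its difference of -2.34 ± 0.33 (SE, adjusted p = 0.05675) did not pass, although the groups were apart. It passed with probes detected on all 6 arrays (adjusted p = 0.01363) and stood at -1.75 under median scaling (adjusted p = 0.2054). Esrra, a nuclear receptor that drives respiratory genes, differed by -1.47 ± 0.43 (SE, adjusted p = 0.2502), both RXF393 arrays being lower. Nrf1, Gabpb1 and Tfb2m had both RXF393 arrays higher, at 0.84 ± 0.57, 0.84 ± 0.49 and 0.70 ± 0.39 (SE), and did not pass. Among the 11 regulators, 3 had both RXF393 arrays lower and 4 both higher, against 20.6% and 28.1% of all genes. Gabpa, the DNA-binding part of GABP, was at least 1.33-fold higher with RXF393, being detected on 1 SKRC39 array. Its log2 difference of 0.85 ± 0.58 was 0.17 at the least when 1 array was left out. Of 13 genes of general mitochondrial mass 6 were negative, with a median of 0.04, Vdac3 standing at -2.64 ± 1.55, or -0.49 without RXF393 replicate 3, and Tomm22 at 1.75 ± 0.67, or 0.69 as the mean of its probes.

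The remaining complexes are the nearest comparison for complexes I and II. The median difference was -0.65 over 8 genes of complex III, -0.13 over 11 of complex IV including cytochrome c, and -0.42 over 13 of ATP synthase, against -0.68 over the complex I genes and -0.59 over complex II. Negative values numbered 6 of 8, 9 of 11 and 11 of 13 in those complexes, against 35 of 35 for complex I and 3 of 4 for complex II. The 35 are all tested Nduf genes, Ndufaf apart, so they include Ndufa4, now counted with complex IV, and Ndufs5-ps. The complex II median and count include Sdha, which was near background. No gene of these lists passed the threshold, and the differences between complexes were not tested. Under median scaling the medians were -0.19 for complex III, 0.17 for complex IV and -0.01 for ATP synthase, against -0.18 for complex I and -0.17 for complex II. Cyc1, the haem-bearing cytochrome of complex III, had 12.67 and 8.65 with RXF393, against 14.44 and 13.74 with SKRC39. Like Sdhb and Ndufc2, it was far lower on replicate 3, and under median scaling it passed as lower at -3.05 (adjusted p = 0.04548). Of the tested genes, 3 of 8 in complex III, 6 of 11 in complex IV and 6 of 13 in ATP synthase lay within 20% of the highest signal on at least 1 of the 4 arrays, against 5 of 35 in complex I and 0 of 4 in complex II. Differences of such probes can be too small, which limits the medians given here. Uqcrfs1, the Rieske iron-sulfur protein, was at least 1.38-fold higher with RXF393, on 1 array of which it was detected, while neither SKRC39 array detected it, and its difference of 0.92 ± 0.57 was 0.12 at the least when 1 array was left out. Cycs, the electron carrier cytochrome c, differed by -0.94 ± 0.24 (SE, adjusted p = 0.2031), Cox4i1 by 0.01 ± 0.22, Atp5d by -2.05 ± 0.97 and Atp5e by 0.06 ± 0.64.

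**Figure D5:**
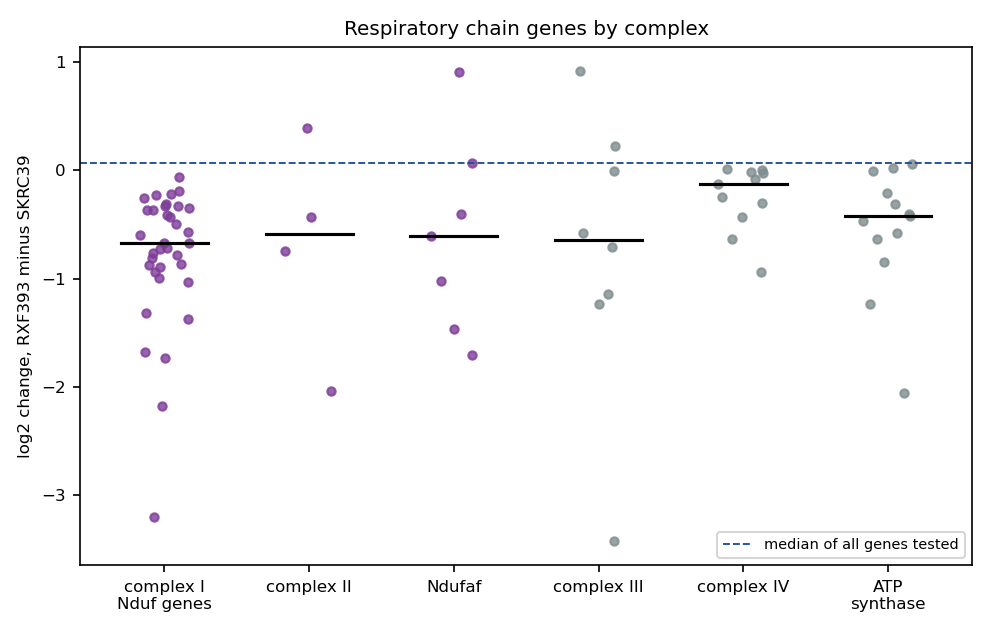
Log2 difference, RXF393 minus SKRC39, of each tested gene of complexes I to IV, ATP synthase and the Ndufaf assembly factors, with a bar at the median of each list and a dashed line at the median of all genes. The complex I list holds all 35 tested Nduf genes, Ndufa4 and Ndufs5-ps included. The medians are -0.68, -0.59 and -0.65 for complexes I, II and III under the quantile scaling plotted, and -0.18, -0.17 and -0.19 under median scaling.

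Markers of fibre type and of other cells differed between the same arrays. Slow-fibre markers were lower in sign for 5 of 6 tested genes, with a median of -1.24 and summed intensities of 32633 and 90199 on the RXF393 arrays, against 144980 and 130210 on the SKRC39 arrays. On the array titled RXF_1, where complex I and II genes stood near the SKRC39 level, that sum was 1367.1, the lowest of the 6 arrays. Fibroblast markers were lower in sign for 8 of 8 genes, or 6 of 8 under median scaling, with sums of 18998 and 24434 with RXF393, against 29433 and 32535 with SKRC39. Without Dcn the sums were 1292.3 and 2145.5 with RXF393, against 3608.7 and 4050.6 with SKRC39. Neutrophil markers were higher in sign for 5 of 6 tested genes, with sums of 14348 and 10728 with RXF393, against 301.39 and 674.21 with SKRC39, while Ngp, Camp and Cxcr2 were not detected. Lcn2, a neutrophil granule protein and the only listed marker past the threshold, differed by 6.69 ± 0.66 (SE, adjusted p = 0.03). Without Lcn2 the sums were 2088.2 and 6334.2 with RXF393, against 256.35 and 607.35 with SKRC39. Erythroid markers were higher in sign for 3 of 3 tested genes, with sums of 78863 and 74707 with RXF393, against 67394 and 26583 with SKRC39. Without Hba-a1 the sums were 7562.7 and 11024 with RXF393, against 2010.9 and 789.23 with SKRC39. The median difference was 0.06 over 5 endothelial, -0.20 over 5 macrophage and -0.56 over 4 adipocyte markers. The part of these markers' cells in the differences of complex I and II genes was not tested.

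On the 2 arrays with conflicting labels the members stood nearer to the line that the characteristics name. Relative to the SKRC39 mean, the median over the 39 genes was -0.61 and -0.63 on RXF393 replicates 2 and 3, -0.65 on the array titled SKR_3 and 0.03 on the array titled RXF_1. SKR_3 lay below both SKRC39 arrays for 33 of 39 genes and above both for 2, and RXF_1 for 9 and 8. The same counts over all genes were not taken. The median over all genes, relative to the SKRC39 mean, was 0.15 on SKR_3 and -0.01 on RXF_1. SKR_3 shared the low values of the 7 genes with a wide RXF393 gap, with 7.30 for Ndufb7, 11.99 for Ndufs3 and 10.14 for Sdhb. On RXF_1 the levels were 11.51 for Ndufb7, 14.45 for Ndufs3 and 13.69 for Sdhb. SKR_3 had 11 members more than 1 log2 unit below the SKRC39 mean, close to the 12 on RXF393 replicate 3 and above the 1 on RXF393 replicate 2. SKR_3 and RXF393 replicate 3 also had the lowest shares of probes detected, 30.3% and 30.9%, against 36.5% on RXF_1. Whether detection bears on the shared low values was not tested.

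The number of members past the threshold depended on the grouping of those 2 arrays. With all 6 arrays grouped by characteristics, 18 of 39 members passed as lower and 0 as higher, against 7.81% and 10.5% of all genes. They were 16 complex I genes and 2 complex II genes, among them Ndufs7 with -0.69 ± 0.12 (SE, adjusted p = 0.01159), Sdhc with -0.74 ± 0.13 (SE, adjusted p = 0.01192) and Ndufv3 with -0.85 ± 0.15 (SE, adjusted p = 0.01211). Ndufaf4 passed as higher with 0.99 ± 0.25 (SE, adjusted p = 0.036) and Ndufaf5 as lower with -0.97 ± 0.26 (SE, adjusted p = 0.04087). With all 6 arrays grouped by title, 0 members passed, and no gene tested passed either. By title 37 of 39 members were negative, against 49.7% of all genes. The median was -0.23 over the 39 genes and 0.0014 over all genes. Which label of the 2 arrays is right is not given in the sources used here.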

How the data were processed

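The file headers of the main deposited table give linear, not yet normalized intensity for every probe. Beside each deposited intensity stands a detection p-value. The authors' other deposited table has intensity after their quantile normalization with GenomeStudio (Gene Expression module 1.9.0), as the labels' design text says. The arrays are Illumina MouseWG-6 v2.0 beadchips, read in 1 colour, 6 in all, on 1 beadchip. Groups came from title and characteristics where both name the same line.

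Intensities were background-corrected with controls inferred from the detection p-values, given an offset of 16, quantile-scaled over 6 arrays and taken to log2 (neqc, limma 3.58.1, R 4.3.3). The offset shrinks fold changes of dim probes. Probes with a detection p under 0.05 on at least 2 arrays were kept, 17738 probes and 10196 genes. limma's moderated test with an intensity trend was fitted on 4 arrays, Benjamini-Hochberg adjustment ran over all probes, and the threshold was 0.05. It was tested on simulated data.

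Of 45281 probes, 34885 carry 1 symbol, 18 several and 10378 none. "At least" folds divide the brighter mean by the dimmer one after raising each dim value to its array's lowest detected signal. Described gene by gene are the core subunits of complex I, the Sdh genes, the 6 most negative and any positive members up to 6, 4 Ndufaf genes, Ndufa4, Ndufab1 and the extremes of each pathway list. Other genes given with values, such as Ndufv3, Ndufa9, Ndufb8, Ndufaf4 and Esrra, were chosen after their values were seen. The members and lists were chosen with earlier results of these data known. Alternatives changed scaling, background, offset, filter, probes, variance model, threshold, grouping, pairing and arrays. The number of arrays limits precision. The 2 arrays with conflicting labels entered no main comparison.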

Additional observations from a re-analysis of the deposited data

Results flagged for a closer look

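The 2 arrays with conflicting labels, which the comparison does not use, carried values outside the SKRC39 range for some members. On the array titled RXF_1, 8 of 39 complex I and II genes lay above both SKRC39 arrays, namely Ndufa1, Ndufa4, Ndufa9, Ndufa12, Sdha, Sdhb, Sdhc and Sdhd. On the array titled SKR_3, 2 of 39 lay above both, namely Ndufa7 and Sdhd. Below both lay 9 of 39 on RXF_1 and 33 of 39 on SKR_3. These counts have no test and no share of all genes beside them, so they do not set the members apart.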

How the results depend on the processing

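No member passed the threshold in the main fit, and none passed with median scaling, the authors' table, no background correction, an offset of 50, either change of the detection filter, the mean of probes, either other variance model, the 4 arrays normalized alone, grouping by title or a threshold of 0.10. Over all genes, the counts as higher and lower were 20 and 16. They were 133 and 53 with median scaling, 94 and 53 with probes detected on all 6 arrays, 47 and 41 with robust variances, 48 and 39 at a threshold of 0.10, 0 and 0 without the intensity trend (774 and 576 at an unadjusted p under 0.05) and 0 and 0 by title (9 and 10 unadjusted). The authors' table gave 12 higher. Grouping by characteristics gave 1072 and 796, with 16 complex I and 2 complex II genes lower, and 1 Ndufaf gene in each direction.

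Arrays sharing a number in their descriptions had deviations that correlated at 0.51 over 17738 probes, but 2 pairs cannot settle a pairing. With that number as a replicate block the 4 arrays gave 189 and 167 genes and 0 members, the smallest adjusted p of a member by limma being 0.05563. With the block and grouping by characteristics the counts were 1650 and 1464, with 21 complex I, 2 complex II and 3 Ndufaf genes lower and 1 Ndufaf gene higher.

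Members with a negative difference numbered 25 of 39 with median scaling, against 36.5% of all genes. The complex I median was -0.68, and it was -0.18 with median scaling, -0.72 with the mean of probes and -0.23 by title. The complex II median was -0.59, and it was -0.17 with median scaling, -0.47 in the authors' table, -0.46 without background correction, -0.49 with an offset of 50, -0.75 with probes detected on all 6 arrays, -0.44 with the mean of probes and -0.16 by title. The Ndufaf median was -0.61, and it was -0.21 with median scaling, -0.11 by title and -0.78 by characteristics, with or without the replicate block.

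Leaving out 1 array at a time gave 6 to 173 genes higher and 14 to 277 lower. The counts were 173 and 277 without RXF393 replicate 2, 6 and 14 without RXF393 replicate 3, 45 and 20 without SKRC39 replicate 1, and 74 and 60 without SKRC39 replicate 2. The same fits gave 0 to 6 complex I and 0 to 1 complex II genes lower, and 36 to 39 negative members, with medians of -0.70 to -0.60 for complex I, -0.64 to -0.46 for complex II and -0.70 to -0.52 for Ndufaf genes. The highest counts of members came without RXF393 replicate 2. In those fits the sign turned for Sdhd (-0.31 to 1.09), Ndufb2 (-0.70 to 0.27), Ndufb4 (-1.13 to 0.40), Ndufa4 (-0.41 to 0.032), Ndufaf2 (-0.82 to 0.0094), Ndufaf3 (-0.21 to 0.33), Ndufaf7 (-3.43 to 0.014), Ndufaf8 (-3.16 to 0.23), Sdhaf2 (-0.062 to 0.71), Cox4i1 (-0.17 to 0.20) and Atp5e (-0.60 to 0.72). Ndufa4 was 0.21 with median scaling. By title the sign turned for Ndufaf8 (0.26), Ndufaf3 (-0.11), Etfdh (0.062), Gabpa (-0.15), Vdac3 (0.20), Uqcrfs1 (-0.27), Cox4i1 (-0.081) and Atp5e (-0.22). The causes were not tested. Sdha, Ndufs1 and Ndufb11 lie near background, so small changes there could not be measured.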
